A study of Mus musculus with 35 samples.

Results

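Collagens and other genes of the extracellular matrix were examined in the RNA-seq of hematopoietic stem/progenitor cells (HSPCs) from wild-type (WT) and JMJD1B-/- mice. The genes were taken by name, as collagen chains, laminins, fibrillins, fibulins, fibronectin, nidogens, perlecan, thrombospondins, tenascin C, periostin, Sparc, small leucine-rich proteoglycans, lysyl oxidases, the collagen chaperone Serpinh1, tissue inhibitors of metalloproteases (TIMPs), and ADAMTS proteases with their relatives. Of the 11982 gene names in the table, 21 matched these names, and 111 symbols of the RefSeq mouse annotation do. The 21 were 5 fibrillar collagen chains, 3 laminin chains, fibronectin with 2 matricellular proteins, 1 proteoglycan, 1 lysyl oxidase, 2 TIMPs, 5 ADAMTS genes and Col4a3bp. Col4a3bp encodes a ceramide transfer protein and matched by its name alone, which leaves 20 matrix genes. No basement membrane or network collagen and no Serpinh1 was among the listed names.

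JMJD1B, encoded by Kdm3b, removes methyl groups from histone H3 lysine 9 and, in this study, from histone H4 arginine 3, and the study asked how its loss alters gene expression in HSPCs. Polyadenylated RNA was sequenced from HSPCs of bone marrow in 2 WT and 2 JMJD1B-/- libraries. All mice were of a 129P2xC57BL/6J background, the JMJD1B-/- mice carried a gene trap made in embryonic stem cells, and male and female adults were used in the study without the sex or age of single libraries being stated. The knockout is a germline one and not restricted to blood cells, and nothing in the sources used here says how many animals stood behind a library, so the p-values measure the spread between these libraries, which may be technical. Values are RPKM, that is reads scaled to the length of the transcript and to the mapped reads of the library, which allows levels of different genes to be set side by side.

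The extracellular matrix is a network of collagen fibrils, basement membrane sheets of laminin, and adhesive glycoproteins, which is laid down in bone marrow mainly by stromal, bone-forming, cartilage and vessel cells. Type I collagen is built of chains from Col1a1 and Col1a2, and type V collagen is needed for its fibrils to form. Blood cells meet this network through integrins and other receptors, and megakaryocytes, the cells that shed platelets, make and store some matrix proteins themselves, with thrombospondin 1 the best known. Matrix turnover is set by metalloproteases of the MMP and ADAMTS families and by the TIMPs that block them.

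Kdm3b was at 31.0 and 24.3 RPKM in the WT libraries and at 4.00 and 4.63 RPKM in the JMJD1B-/- libraries (log2 fold change -2.65 ± 0.24 (SE), adjusted p = 0.0314 in limma with Benjamini-Hochberg adjustment), in the direction of the labels. The libraries held between 6105000 and 24570000 reads by an estimate from the values, with JMJD1B-/- replicate 1 the lowest. A level of 3 reads per kilobase was 0.122 to 0.171 RPKM in the other libraries and 0.491 RPKM in JMJD1B-/- replicate 1, by counting error alone. WT replicate 2 stood apart in Xist, the RNA of the inactive X chromosome, with 331.6 RPKM against 0.0510, 0 and 0.0451 RPKM in WT replicate 1 and JMJD1B-/- replicates 1 and 2. JMJD1B-/- replicate 1 stood apart in lymphoid genes. It held the highest value of 14 of 15 listed T and NK cell markers and 4 of 5 listed B cell markers, against 17.1% of all listed genes. Of these markers, 4 and 2 were listed through that library alone, so that being highest there was a condition of their being listed. All 20 stem and progenitor markers were listed, with sums of 674.2, 628.8, 472.8 and 619.5 RPKM in WT replicates 1 and 2 and JMJD1B-/- replicates 1 and 2, of which 7 were lower and 1 was higher in JMJD1B-/- HSPCs by the unadjusted p used below, against 6.33% and 3.81% of all genes tested. The table lists only genes that reached 1 RPKM in at least 1 library. Of the 21 genes, 11 did so in all 4 libraries and 6 in a single library, which was WT replicate 2 for Col2a1, Lamb1, Loxl3 and Sparc, WT replicate 1 for Lama5 and JMJD1B-/- replicate 1 for Adamts14.

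Matrix transcripts differed between libraries of one genotype as well as between genotypes. The 20 matrix genes summed to 105.9 and 144.1 RPKM in WT replicates 1 and 2 and to 80.4 and 78.8 RPKM in JMJD1B-/- replicates 1 and 2. In 5 of them, Col1a1, Col1a2, Col2a1, Sparc and Lamb1, over 70% of the RPKM summed over the 4 libraries lay in WT replicate 2. Among all listed genes, 0.159% had over 70% of their sum in WT replicate 2 and 1.24% in any 1 library. Col2a1, Sparc and Lamb1 entered the table through WT replicate 2 alone, so a high share in that library was a condition of their being listed, and nothing is read from their count. These 5 genes together had 4.21, 31.6, 3.79 and 1.89 RPKM in WT replicates 1 and 2 and JMJD1B-/- replicates 1 and 2. The other 15 matrix genes had 101.7, 112.4, 76.6 and 76.9 RPKM in the same order, with both WT libraries above both JMJD1B-/- libraries. That order rested on Thbs1 and Timp3, the most abundant of the called genes, and the 13 genes without them summed to 51.7, 48.2, 45.4 and 48.2 RPKM.

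**Figure D1:**
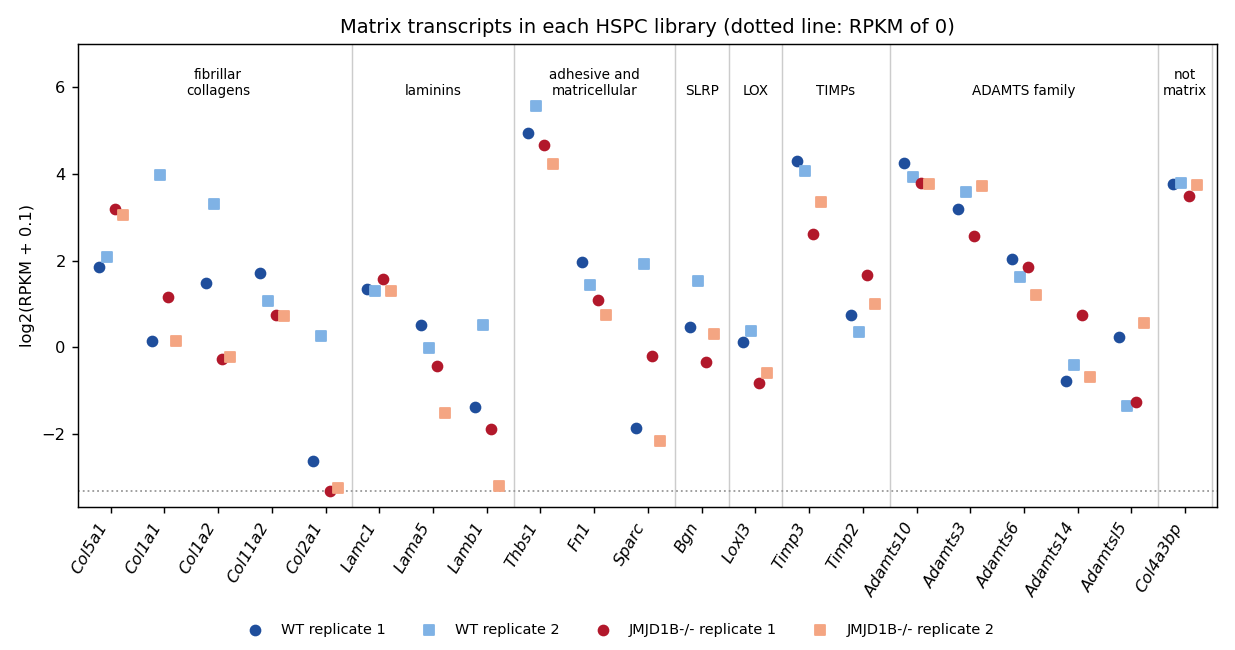
Level of each gene in each HSPC library as log2(RPKM + 0.1) on the vertical axis, with genes grouped by role along the horizontal axis (SLRP, small leucine-rich proteoglycan; LOX, lysyl oxidase) and 1 point per library. Both JMJD1B-/- libraries lie above both WT libraries for Col5a1 and Timp2 and below them for Timp3 and Thbs1, while Col1a1, Col2a1, Sparc and Lamb1 are high in WT replicate 2 alone.

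Of the 21 genes, 19 had a mean of at least 0.5 RPKM and were tested, and Col2a1 and Lamb1 were not. Called here means an unadjusted p under 0.05 in limma, a moderated test fitted over all 11863 genes tested. By it 3 genes, Col1a2, Timp3 and Thbs1, were lower in JMJD1B-/- HSPCs, where 6.33% of all genes tested were, and 1 gene, Col5a1, was higher, where 3.81% were. After Benjamini-Hochberg adjustment in limma none of the 19 passed (adjusted p = 0.258 to 0.962), against 0.0421% of all genes tested, and a two-sample test of each gene on its own left none after adjustment and called Loxl3 lower and Col5a1 higher before it. By sign alone, 14 of the 19 were lower in JMJD1B-/- HSPCs, against 53% of all genes tested. In 10 of the 19 genes each JMJD1B-/- library was lower than each WT library, against 22.7% of all genes tested, and in 2 genes each was higher, against 20.1%. The median log2 fold change was -0.66 over the 19 genes and -0.02 over all genes tested. Of these 19 genes, Col1a2, Sparc, Loxl3 and Lama5 had reached the floor of 1 RPKM only in WT libraries and Adamts14 only in a JMJD1B-/- library, so a high level in that genotype was a condition of their being listed, and nothing is read from counts that include them. Of the 14 genes that reached the floor in both genotypes, a restriction chosen after seeing the data, 2 were called lower (Timp3 and Thbs1) and 1 higher (Col5a1), against 5.98% and 3.82% of the 11114 genes tested with the same property. Of these 14, 10 were lower by sign, against 52.3%, 7 lay below without overlap, against 21.4%, and 2 above, against 20.3%. Their median log2 fold change was -0.30, against -0.02. In bulk RNA, fewer cells of a type and less RNA per cell cannot be told apart.

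**Figure D2:**
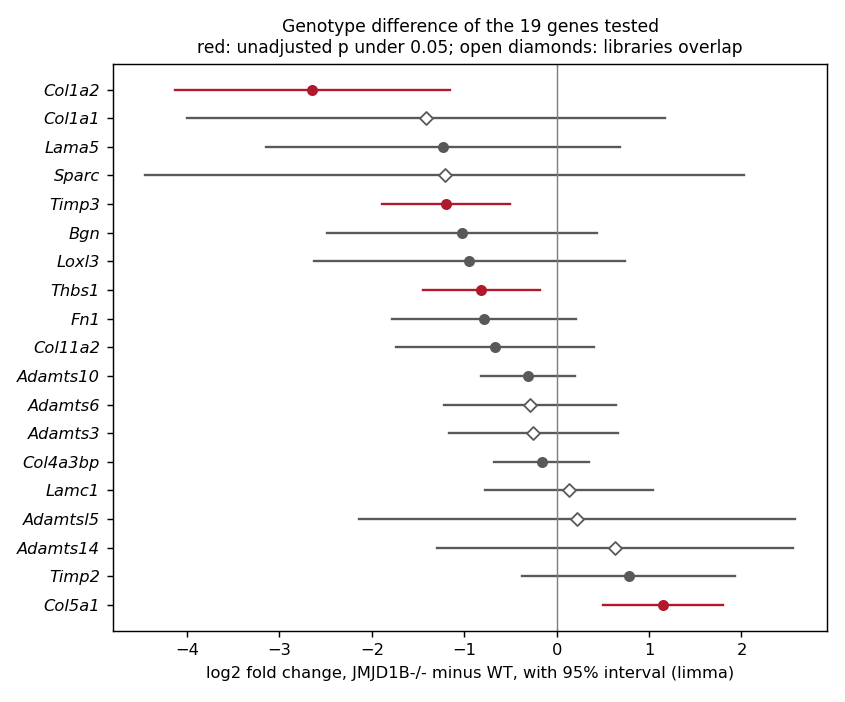
Log2 fold change of each of the 19 genes tested, as JMJD1B-/- minus WT on the log2(RPKM + 0.1) scale, with the 95% interval from limma (2 libraries per genotype). Red marks an unadjusted p under 0.05 and open diamonds mark genes whose libraries overlap between genotypes. The intervals of Col1a2, Timp3 and Thbs1 lie below 0 and that of Col5a1 lies above 0.

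Of the 4 fibrillar collagen genes tested, Col5a1 was called higher, Col1a2 was called lower, and Col1a1 and Col11a2 were not called. Col5a1, which encodes the main chain of type V collagen, was the collagen gene with the highest mean level over the 4 libraries. It was at 3.49 and 4.16 RPKM in the WT libraries and at 9.09 and 8.13 RPKM in the JMJD1B-/- libraries. Replicates lay close together, and the genotypes did not overlap. The means were 3.82 ± 0.474 RPKM (SD, n = 2) in WT and 8.61 ± 0.681 RPKM (SD, n = 2) in JMJD1B-/- HSPCs, and the log2 fold change was 1.15 ± 0.28 (SE, limma unadjusted p = 0.00381, adjusted p = 0.258). An estimate of the reads behind these values gave 516.4 and 864.8 reads in the WT libraries and 470.1 and 1447 reads in the JMJD1B-/- libraries. The level was thus well above the counting limit in the shallow library too. With any 1 library left out, the log2 fold change stayed between 1.03 and 1.28, with an unadjusted p of 0.0485 or less in limma. Erythroid markers were higher in the same libraries, with 13 of 15 called higher, against 3.81% of all genes tested, and sums of 925.2 and 1333 RPKM in WT and 2409 and 3645 RPKM in JMJD1B-/- libraries. Their part in the Col5a1 value was not tested.

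Both chains of type I collagen were highest in WT replicate 2. Col1a2 was at 2.69 and 9.78 RPKM in WT replicates 1 and 2 and at 0.725 and 0.757 RPKM in JMJD1B-/- replicates 1 and 2. The JMJD1B-/- libraries nearly coincided, and both lay below both WT libraries, which differed 3.63-fold from each other. Col1a2 was above 1 RPKM in the WT libraries alone and was listed through them. A high WT level was thus a condition of its being listed, and nothing is read from its difference between genotypes. The log2 fold change of Col1a2 was -2.64 ± 0.64 (SE, limma unadjusted p = 0.00385, adjusted p = 0.258), from means of 6.23 ± 5.01 RPKM (SD, n = 2) in WT and 0.741 ± 0.0225 RPKM (SD, n = 2) in JMJD1B-/- HSPCs. Behind these stood an estimated 244.6 and 1248 reads in WT and 23 and 82.7 reads in JMJD1B-/- libraries. Without WT replicate 2 the log2 fold change of Col1a2 was -1.73 and was no longer called (limma unadjusted p = 0.106).

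Col1a1 did not separate the genotypes. It was at 0.997 and 15.7 RPKM in WT replicates 1 and 2 and at 2.13 and 0.998 RPKM in JMJD1B-/- replicates 1 and 2. WT replicate 2 alone was high, and WT replicate 1 was level with JMJD1B-/- replicate 2. The log2 fold change of Col1a1 was -1.41 ± 1.11 (SE, limma unadjusted p = 0.240, adjusted p = 0.693), and it turned to 0.51 without WT replicate 2 and to -3.34 without WT replicate 1 (limma unadjusted p = 0.00217). The chains were also in unequal proportion, since the ratio of Col1a1 to Col1a2 RPKM was 0.371 and 1.61 in WT replicates 1 and 2 and 2.93 and 1.32 in JMJD1B-/- replicates 1 and 2. WT replicate 1 was the library in which Col1a2 exceeded Col1a1.

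Chains of the cartilage collagens were listed too. Col2a1, the chain of type II collagen, was at 0.0609, 1.09, 0 and 0.00558 RPKM in WT replicates 1 and 2 and JMJD1B-/- replicates 1 and 2, and 94.3% of its sum lay in WT replicate 2. An estimated 5.53, 139.4, 0 and 0.608 reads stood behind it, and at the level of WT replicate 1 the JMJD1B-/- libraries would have held 1.93 and 6.64 reads. In every library except WT replicate 2 it was below the level of 3 reads per kilobase, and a fold change is not given. Col11a2, a chain of type XI collagen, was at 3.18, 2.004, 1.56 and 1.55 RPKM in the same order, with both JMJD1B-/- libraries below both WT libraries and a log2 fold change of -0.66 (limma unadjusted p = 0.189), which was -0.34 without WT replicate 1.

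**Figure D3:**
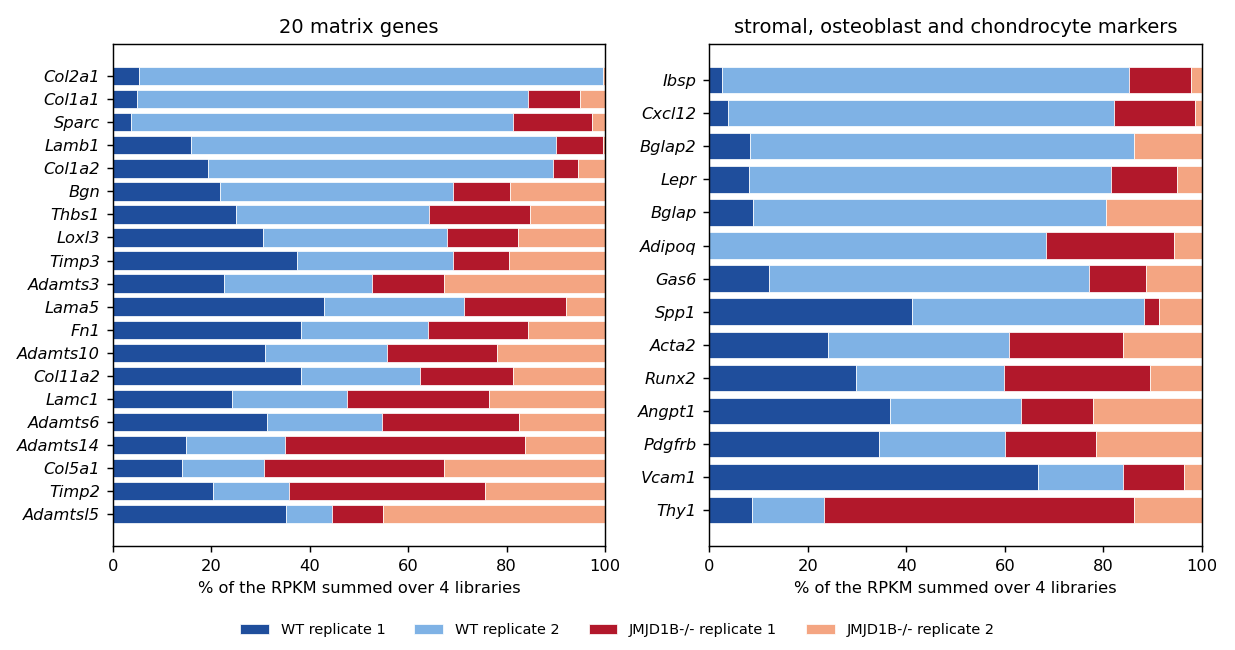
Share of each gene's RPKM, summed over the 4 libraries, that each library holds, in percent, for the 20 matrix genes (left) and the listed markers of mesenchymal stroma, osteoblasts and chondrocytes (right). WT replicate 2 holds over 70% for Col2a1, Col1a1, Sparc, Lamb1 and Col1a2 and for 2 of the 9 stromal and 3 of the 5 bone and cartilage markers. Of these, Col2a1, Sparc, Lamb1, Lepr, Bglap, Bglap2 and Ibsp were listed through that library alone.

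The listed markers of stromal and bone cells were also read in each library. Of the mesenchymal stroma list, 9 of 20 genes were listed and 5 of the 9 were highest in WT replicate 2, and of the osteoblast and chondrocyte list 5 of 13 were listed and all 5 were highest there. Among all listed genes, 18.3% were highest in WT replicate 2. Lepr, Adipoq, Gas6, Bglap, Bglap2 and Ibsp reached the floor of the table in that library alone. Being highest there was thus a condition of their being listed, and nothing is read from the marker counts. The sums were 96.6, 78.7, 49.3 and 53.9 RPKM for stroma and 16.7, 23.1, 15.3 and 6.45 RPKM for osteoblasts and chondrocytes in WT replicates 1 and 2 and JMJD1B-/- replicates 1 and 2. These sums rested on Angpt1, at 30.4 to 76.0 RPKM, and on Runx2, at 5.29 to 15.1 RPKM, both of which blood progenitors also express. Without Angpt1 the stromal sums were 20.6, 23.8, 18.9 and 8.10 RPKM, and without Runx2 the osteoblast and chondrocyte sums were 1.85, 8.04, 0.516 and 1.16 RPKM in the same order. The stromal markers did not share one pattern, and those other than Angpt1 and Vcam1 are named after their values were seen. Vcam1, at 10.8, 2.78, 2.02 and 0.572 RPKM, and Pdgfrb, at 5.11, 3.77, 2.74 and 3.17 RPKM, were highest in WT replicate 1, and Thy1, which T cells also express, was highest in JMJD1B-/- replicate 1 at 9.04 RPKM. Others were highest in WT replicate 2. Cxcl12, a chemokine of marrow stroma, was at 0.293, 5.92, 1.26 and 0.0996 RPKM in the same order, and Ibsp, a protein of mineralized bone, was at 0.0874, 2.72, 0.417 and 0.0727 RPKM. Adipoq was at 0 in WT replicate 1, and Bglap and Bglap2, which share near-identical sequence, were at 0 in JMJD1B-/- replicate 1. Of the endothelium list 11 of 18 genes were listed, with sums of 97.6, 82.4, 56.1 and 65.6 RPKM and Robo4 at 0 in JMJD1B-/- replicate 1. Without Pecam1, the most abundant, the endothelium sums were 63.65, 48.49, 36.54 and 57.67 RPKM, and the genotypes overlapped. Emcn, Robo4 and Stab2 reached the floor of the table only in WT libraries. The part of such cells in the collagen values was not tested.

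The proximal promoters of Col1a2 and Col5a1 are shown because these are the called collagen genes. They are the 250 bases upstream of the RefSeq start site in GRCm38.p6, at chr6:4505368-4505617 (+) for Col1a2 and chr2:27886175-27886424 (+) for Col5a1, written 5′ to 3′. Capitals mark matches on either strand to the CCAAT box (letters CCAAT), the TATA box (letters TATAAA) or the GC box (letters GGGCGG), of which no 2 overlapped.
Col1a2: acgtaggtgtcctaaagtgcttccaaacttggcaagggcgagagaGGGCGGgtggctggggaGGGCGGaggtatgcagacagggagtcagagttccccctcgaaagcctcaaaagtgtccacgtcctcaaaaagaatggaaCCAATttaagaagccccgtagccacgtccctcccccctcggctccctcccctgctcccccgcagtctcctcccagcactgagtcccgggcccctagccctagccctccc
Col5a1: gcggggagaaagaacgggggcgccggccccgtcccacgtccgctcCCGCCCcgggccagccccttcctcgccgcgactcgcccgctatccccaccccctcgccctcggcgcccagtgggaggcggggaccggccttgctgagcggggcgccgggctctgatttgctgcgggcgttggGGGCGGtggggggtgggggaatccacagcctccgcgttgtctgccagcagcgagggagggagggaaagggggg
The Col1a2 window holds CCAAT at 109 bases and GGGCGG at 188 and 205 bases before the start, and 62% of its bases are G or C. The Col5a1 window holds GGGCGG at 73 bases and its reverse complement CCGCCC at 205 bases before the start, without a CCAAT box, and is 76.4% G or C. Of the 32851 mouse windows of the same length, 33.8% hold CCAAT, 32.7% hold GGGCGG and 12.4% hold TATAAA on either strand, and the median share of G and C is 52.4%. A match describes the letters and is not a measured binding site.

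Neither of the 2 laminin chains tested, Lamc1 and Lama5, was called, and Lamb1 was not tested. Lama5, Lamb1 and Lamc1 encode the 3 chains of laminin-511, a laminin of marrow vessels and stroma. Lamc1 was at 2.43 and 2.34 RPKM in WT and at 2.88 and 2.37 RPKM in JMJD1B-/- libraries, which overlapped. Its log2 fold change was 0.13 (limma unadjusted p = 0.747). Lama5 was at 1.33 and 0.885 RPKM in WT and at 0.641 and 0.246 RPKM in JMJD1B-/- libraries. All its JMJD1B-/- values were lower, but the spread within JMJD1B-/- HSPCs was wide, with a log2 fold change of -1.23 ± 0.82 (SE, limma unadjusted p = 0.176). Leaving out JMJD1B-/- replicate 2 moved the log2 fold change of Lama5 to -0.68, and leaving out JMJD1B-/- replicate 1 moved it to -1.78. Because Lama5 passed the floor of 1 RPKM only in WT replicate 1, a high WT value was required for it to be listed. Its lower JMJD1B-/- values and its fold changes are therefore not read as a difference between genotypes. Lamb1 was at 0.285, 1.32, 0.169 and 0.00819 RPKM in WT replicates 1 and 2 and JMJD1B-/- replicates 1 and 2, with 74.1% of its sum in WT replicate 2. JMJD1B-/- replicates 1 and 2 held 6 reads and 1 read of Lamb1 by the estimate, where the level of WT replicate 1 would have given 10.1 and 34.8 reads. The 3 chains were thus in unequal proportion, with Lamc1 highest in every library and Lama5 above Lamb1 in all libraries except WT replicate 2.

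Among the adhesive and matricellular genes, Thbs1 was the most abundant, with the highest mean level of all 21 genes. It encodes thrombospondin 1, a glycoprotein of platelet granules that binds Cd47. Thbs1 was at 30.5 and 47.7 RPKM in WT and at 25.2 and 18.5 RPKM in JMJD1B-/- libraries. Both JMJD1B-/- libraries were lower, although WT replicate 1 lay nearer to JMJD1B-/- replicate 1 than to WT replicate 2. The means were 39.1 ± 12.2 RPKM (SD, n = 2) and 21.9 ± 4.74 RPKM (SD, n = 2), and the log2 fold change was -0.82 ± 0.27 (SE, limma unadjusted p = 0.0182, adjusted p = 0.409). Without WT replicate 2 it was -0.50 and was no longer called (limma unadjusted p = 0.181), as it also was not with all libraries when limma was run without trend (unadjusted p = 0.0614). All 18 megakaryocyte and platelet markers were listed, and 12 of them were called lower, against 6.33% of all genes tested, and none higher, with a median log2 fold change of -0.84, against -0.02. They summed to 1082 and 1068 RPKM in WT and to 496.4 and 609.7 RPKM in JMJD1B-/- libraries. Their part in the Thbs1 value was not tested.

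Fn1, which encodes fibronectin, was at 3.82 and 2.58 RPKM in WT and at 2.02 and 1.57 RPKM in JMJD1B-/- libraries. The genotypes did not overlap, and the log2 fold change of -0.79 ± 0.43 (SE) was not called (limma unadjusted p = 0.106). It was -0.51 without WT replicate 1 and -0.96 without JMJD1B-/- replicate 1. With all libraries, limma without trend called Fn1 lower (unadjusted p = 0.0495). Sparc, a collagen-binding protein abundant in bone, was at 0.173, 3.70, 0.768 and 0.124 RPKM in WT replicates 1 and 2 and JMJD1B-/- replicates 1 and 2. Like Col1a1 it was high in WT replicate 2, which held 77.6% of its sum, and WT replicate 1 lay between the JMJD1B-/- libraries. Its log2 fold change was -1.21 ± 1.39 (SE, limma unadjusted p = 0.410). It turned to 0.69 without WT replicate 2 and was -3.11 without WT replicate 1. An estimated 7, 209.8, 10.8 and 6 reads stood behind the Sparc values, so that outside WT replicate 2 it rested on few reads.

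The proteoglycan and the lysyl oxidase had low levels in all libraries. Bgn encodes biglycan, which binds collagen fibrils and lies on the X chromosome, and was at 1.29 and 2.80 RPKM in WT and at 0.683 and 1.14 RPKM in JMJD1B-/- libraries. Its groups did not overlap, with a log2 fold change of -1.02 ± 0.62 (SE, limma unadjusted p = 0.142), which was -0.49 without WT replicate 2, -1.56 without WT replicate 1 and, then called, -1.36 with JMJD1B-/- replicate 2 left out (limma unadjusted p = 0.0411). Its highest value was in the library that held Xist. Loxl3, an enzyme that prepares collagen and elastin for crosslinking, was at 0.979 and 1.20 RPKM in WT and at 0.466 and 0.565 RPKM in JMJD1B-/- libraries. The genotypes did not overlap, with a log2 fold change of -0.95 ± 0.72 (SE, limma unadjusted p = 0.227). The gene-by-gene test, which borrows no spread from other genes, gave an unadjusted p of 0.0330 for Loxl3 and 0.0158 for Col5a1. Loxl3 reached 1 RPKM in WT replicate 2 alone and was listed through it, so nothing is read from its difference between genotypes.

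The listed inhibitors of metalloproteases, Timp3 and Timp2, lay on opposite sides. Timp3, which is bound to the matrix and blocks MMPs, ADAMs and ADAMTS proteases, was at 19.5 and 16.5 RPKM in WT and at 5.98 and 10.1 RPKM in JMJD1B-/- libraries. The genotypes were well apart, and JMJD1B-/- replicate 1, the shallow library, was lowest. The means were 18.0 ± 2.07 RPKM (SD, n = 2) and 8.05 ± 2.93 RPKM (SD, n = 2), and the log2 fold change was -1.19 ± 0.30 (SE, limma unadjusted p = 0.00436, adjusted p = 0.267). It ranged from -1.57 to -0.82 with 1 library left out, and without WT replicate 1 it was -1.08 and narrowly missed the call (limma unadjusted p = 0.0521). The 12 megakaryocyte markers given above and 8 of 12 listed markers of basophils, eosinophils and mast cells were called lower too, against 6.33% of all genes tested, although the latter list's sums of 6151, 1674, 4601 and 1208 RPKM in WT replicates 1 and 2 and JMJD1B-/- replicates 1 and 2 overlapped. That overlap rested on Prg2, at 5377, 988.3, 4328 and 1077 RPKM, and the 11 markers without it summed to 773.4, 685.7, 272.6 and 130.8 RPKM, with both JMJD1B-/- libraries lower. Of the granulocyte markers, 7 of 12 tested were called lower and 3 higher, against 6.33% and 3.81% of all genes tested. Their sums were 314.7, 210.9, 147.3 and 66.3 RPKM. Of the 11 listed monocyte and macrophage markers 3 were called lower and none higher, against the same shares. These markers summed to 136.2, 124.5, 121.9 and 39.6 RPKM in the same order. Without Ccr2, the most abundant, the sums were 99.72, 67.4, 75.19 and 31.42 RPKM, and the genotypes overlapped. The part of such cells in the Timp3 value was not tested. Timp2, a soluble inhibitor that also takes part in the activation of Mmp2 by Mmp14, was at 1.58 and 1.18 RPKM in WT and at 3.07 and 1.89 RPKM in JMJD1B-/- libraries. Both JMJD1B-/- values were higher, with a log2 fold change of 0.78 ± 0.49 (SE, limma unadjusted p = 0.155), which fell to 0.44 when JMJD1B-/- replicate 1 was left out. When JMJD1B-/- replicate 2 was left out, it was 1.11 and called (limma unadjusted p = 0.0350).

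The promoter of Timp3, the called gene among the inhibitors, is printed in the same way, for chr10:86300162-86300411 (+) of GRCm38.p6.
Timp3: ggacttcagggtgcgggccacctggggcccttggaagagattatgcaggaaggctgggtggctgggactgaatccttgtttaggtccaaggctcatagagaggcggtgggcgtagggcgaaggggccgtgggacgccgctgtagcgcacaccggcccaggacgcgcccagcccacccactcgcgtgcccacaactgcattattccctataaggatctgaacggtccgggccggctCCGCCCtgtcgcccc
It holds CCGCCC, the reverse complement of GGGCGG, at 15 bases before the start, has no match to the CCAAT box or the TATA box, and 65.6% of its bases are G or C.

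ADAMTS proteases showed no called difference when all libraries were used. The 5 listed genes differed more in level than between genotypes. Adamts10, a protease of fibrillin microfibrils, was at 19.1 and 15.2 RPKM in WT and at 13.8 and 13.5 RPKM in JMJD1B-/- libraries, without overlap and with a log2 fold change of -0.31 (limma unadjusted p = 0.189), which was -0.15 without WT replicate 1. Adamts3, which removes the amino-terminal propeptide of procollagen, was at 9.06 and 11.97 RPKM in WT and at 5.82 and 13.1 RPKM in JMJD1B-/- libraries. Adamts6 was at 3.98 and 2.96 RPKM in WT and at 3.51 and 2.22 RPKM in JMJD1B-/- libraries. Both overlapped between genotypes, with log2 fold changes of -0.25 for Adamts3 and -0.29 for Adamts6. Adamts14, also a procollagen propeptidase, and Adamtsl5, which lacks the protease part, overlapped too, at 0.483 to 1.57 RPKM and 0.288 to 1.38 RPKM. Col4a3bp, the name match that is no matrix gene, was at 13.6 and 13.7 RPKM in WT and at 11.2 and 13.3 RPKM in JMJD1B-/- libraries (log2 fold change -0.16).

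**Figure D4:**
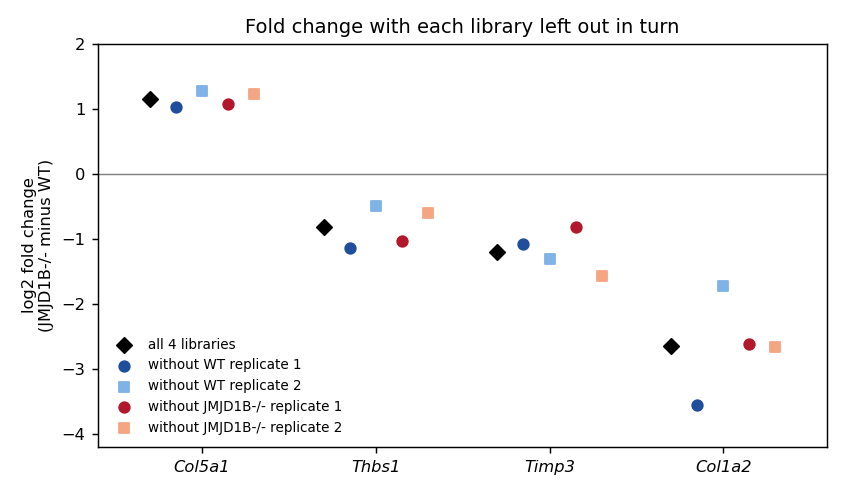
Log2 fold change (JMJD1B-/- minus WT, log2(RPKM + 0.1) scale) of the 4 called genes from all libraries (black diamonds) and from the fits that leave 1 library out (coloured points). Col5a1 stays between 1.03 and 1.28, and Col1a2 moves between -3.55 and -1.73 depending on which WT library is left out.

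Genes that act on the matrix or bind it were read from 3 further lists. Of the enzymes of collagen synthesis and processing, 14 were listed and tested and none was called in either direction in limma. Their median log2 fold change was -0.20. The gene-by-gene test called 1 lower and 1 higher, against 512 lower and 348 higher of all 11863 genes tested. P4hb, a subunit of prolyl 4-hydroxylase and a general disulfide isomerase, was at 156.9 and 137.4 RPKM in WT and at 133.2 and 123.1 RPKM in JMJD1B-/- libraries. Ppib, a prolyl isomerase of the endoplasmic reticulum, was at 94.6 and 93.7 RPKM in WT and at 105.2 and 103.4 RPKM in JMJD1B-/- libraries. P4hb was lower and Ppib higher in both JMJD1B-/- libraries, with log2 fold changes of -0.20 and 0.15 (limma unadjusted p = 0.297 and 0.399). Of the matrix-degrading MMPs and cathepsin K, 4 of 18 were listed, and 2 were called higher, against 3.81% of all genes tested, and none lower. Mmp2 and Mmp19 reached the floor of the table only in WT libraries and Mmp25 only in JMJD1B-/- libraries, so nothing is read from this count. Mmp14, a collagenase of the cell membrane, was at 5.50 and 9.12 RPKM in WT and at 12.2 and 21.1 RPKM in JMJD1B-/- libraries. It was higher in both JMJD1B-/- libraries with a log2 fold change of 1.17 ± 0.35 (SE, limma unadjusted p = 0.0121, adjusted p = 0.369). Mmp25, an MMP of leukocytes, was at 0.541 and 0.155 RPKM in WT and at 4.04 and 1.20 RPKM in JMJD1B-/- libraries, with a log2 fold change of 2.52 ± 0.86 (SE, limma unadjusted p = 0.0208, adjusted p = 0.423), from which nothing is read because it was listed through that genotype alone. Its highest value was in JMJD1B-/- replicate 1, the library with the lymphoid markers.

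Of 30 receptors of matrix proteins, 18 were listed, of which 4 were called lower and 1 higher, with a median log2 fold change of -0.41, against 6.33%, 3.81% and a median of -0.02 over all genes tested. Itga6, a chain of laminin receptors, was at 62.1 and 62.0 RPKM in WT and at 33.6 and 25.0 RPKM in JMJD1B-/- libraries, with a log2 fold change of -1.10 ± 0.20 (SE, limma unadjusted p = 0.000847, adjusted p = 0.166). The WT values were nearly equal, and the JMJD1B-/- values were clearly lower. Gp6, the platelet receptor for collagen, was at 7.54 and 6.29 RPKM in WT and at 1.41 and 2.91 RPKM in JMJD1B-/- libraries (log2 fold change -1.71 ± 0.41, SE). Itga2, a collagen receptor chain, and Itgb3, a chain of receptors for fibronectin and vitronectin, had log2 fold changes of -1.04 and -0.72. Gp6 and Itgb3 are also on the megakaryocyte list. Cd44, a receptor of hyaluronan, was at 26.6 and 30.3 RPKM in WT and at 46.5 and 37.2 RPKM in JMJD1B-/- libraries (log2 fold change 0.55 ± 0.20, SE). The most abundant receptors, Cd47 and Itgb1, overlapped between genotypes. None of these genes passed the adjusted p in limma, and no difference between lists was tested.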

How the data were processed

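RNA-seq of polyA RNA from 4 HSPC libraries was used, and the other samples of the series were not analysed here. The authors deposited 1 table of RPKM values per gene and library to which 1 had been added, which was removed. The submitters' notes name Novoalign, TopHat2 and build mm9, without roles, and the counting program and annotation are not given in the sources used here. The members of the gene set, the lists and the tests were chosen with earlier results of these data known. The 12024 entries cover 11982 names, of which 42 had more than 1 entry and were averaged. None of them was a matrix gene.

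Genes with a mean of at least 0.5 RPKM were tested on log2(RPKM + 0.1), on which scale changes of low genes are understated, with limma 3.58.1 in R 4.3.3 (eBayes with trend, two-sided, Benjamini-Hochberg over all genes tested), without a replicate term. With 2 against 2 libraries an exact permutation test of a single gene cannot go below 0.333. Libraries were grouped by their genotype labels. Alternatives were other pseudocounts, filters and scalings, limma without trend, a gene-by-gene test, a replicate term and leaving out each library. The fit was tested on simulated data.

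Depth was estimated from genes whose 4 values form ratios of whole numbers, with reads of 51 bases. Of 972 genes with enough digits, 103 did so. Reads per gene were resolved for 16 of the 21 genes, as the lowest numbers that fitted, and can be fractional where a read overlaps a gene in part. They cover counting error only, and no count test was run. The genes described with values were the 3 most abundant of each role, those called, and those with over 70% of their sum in 1 library. Of the other lists, the 2 most abundant genes and, for pathway lists, those called could be named. Genes named beyond this rule were chosen after their values were seen. Promoters are from the RefSeq table of GRCm38.p6, which held 12 of the 21 genes but not Thbs1. Its coordinates were not joined with the table's values. Python 3.11.15, numpy 2.4.6, pandas 2.3.3 and matplotlib 3.10.9 were used.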

Additional observations from a re-analysis of the deposited data

How the results depend on the processing

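Of 262 comparisons of a gene's log2 fold change with its value under an alternative, 236 kept direction and side of the threshold, 7 lost the call, 11 gained it and 8 changed sign. All sign changes came from leaving out a library. Under other filters, limma without trend, the gene-by-gene test, the replicate term and unaveraged entries, the fold changes were identical, so no sign could change. Sparc ranged from -3.11 to 0.69 and Col1a1 from -3.34 to 0.51, positive without WT replicate 2. Adamtsl5 ranged from -0.70 to 1.14, negative without WT replicate 2 (-0.58) and without JMJD1B-/- replicate 2. Lamc1 ranged from -0.0057 to 0.27 and Adamts14 from -0.080 to 1.34, negative without JMJD1B-/- replicate 1. Adamts3 ranged from -0.83 to 0.33, positive without JMJD1B-/- replicate 1, and Adamts6 from -0.60 to 0.032, positive without JMJD1B-/- replicate 2. The cause was not tested.

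The 3 genes called lower became 5 with limma without trend (Fn1, Lama5, Timp3, Col1a2 and Loxl3) and 1 (Loxl3) with the gene-by-gene test, so that Thbs1 lost its call in both and Timp3 and Col1a2 in the latter, and 1 to 5 with a library left out, with only Timp3 left without WT replicate 2. The 1 gene called higher stayed 1 to 2, with Timp2 added without JMJD1B-/- replicate 2. Of the matrix genes, 0 to 3 passed the adjusted p with a library left out, namely Thbs1 and Col1a2 without JMJD1B-/- replicate 1 and Col5a1, Timp3 and Col1a2 without JMJD1B-/- replicate 2. The median log2 fold change was -0.79 to -0.30 over the alternatives, with -0.30 for genes that reached 1 RPKM in both genotypes. Over 80% of the sum lay in WT replicate 2 for 1 gene, and with a mean of at least 0.5 RPKM required, the 5 genes became 3.

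Over all genes tested, 5 passed the adjusted p, against 18 with a pseudocount of 1, 3 with 0.01, 3 with a mean of at least 1 RPKM, 1 under median-ratio scaling, 1 after quantile normalization, 0 with limma without trend (unadjusted, 768 lower and 346 higher), 0 with the gene-by-gene test (unadjusted, 512 and 348), and 0 to 669 with a library left out. Genes called lower were 751, or 177 to 1819 with a library left out, and genes called higher 452, or 123 to 1258. The share lower among called genes was 62.4%, against 54.2% under median-ratio scaling and 51.6% under quantile normalization (714 lower and 671 higher).

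Deviations of same-numbered libraries from their group means had r = -0.05 over 11863 genes. With only 2 pairs this cannot settle whether the replicate numbers pair the libraries. With a replicate block, 256 of all genes and 2 matrix genes, Timp3 and Col1a2, passed the adjusted p.

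With 2 libraries per genotype the error of each value is itself poorly known, and a library left out leaves a lone sample assumed to vary like the others. JMJD1B-/- replicate 1 limits genes under 0.491 RPKM.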
